A study of Mus musculus with 8 samples.

Results

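The genes described here are 10 targets of the hypoxia-inducible factors (HIFs) whose products act mostly outside central carbon metabolism, namely *Vegfa*, *Stc2*, *Ero1l*, *Ndrg1*, *Bhlhe40*, *Ankrd37*, *Narf*, *Higd1a*, *Fam162a* and *Ak4*. They were picked by name, with their values under the PHD inhibitor IOX5 and under DMSO already known, and each was found by its Ensembl identifier among the 54838 genes of the count files. All 10 were among the 12405 genes that passed the filter on low counts. Because the contrast of IOX5 with DMSO chose them, their values in it, calls included, are given as a description with no p-value. The samples were mouse *iMLL-AF9* cells, which carry the inducible *MLL-AF9* fusion oncogene of acute myeloid leukemia (AML). The labels give bone marrow as the tissue, leukemic stem cells as the cell type and WT as the genotype for all of them, whereas the design text of the series speaks of preleukemic cells. The 4 DMSO samples received the vehicle and the 4 IOX5 samples the inhibitor, and each group is numbered 1 to 4. The dose, the time of exposure and the meaning of the numbers are not stated for these samples, so p-values measure the spread between these samples, which may be in part technical.

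HIFs are transcription factors made of an oxygen-labile alpha subunit and a stable beta subunit. The PHD enzymes hydroxylate the alpha subunit in the presence of oxygen, which marks it for degradation through VHL, and an inhibitor such as IOX5 blocks that step. The stabilized dimer binds hypoxia response elements, whose core is ACGTG or GCGTG, near genes for blood vessel growth, protein folding, transcription and mitochondrial function as well as for glycolysis.

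Reads assigned to genes numbered 12343770 to 14116054 per DMSO sample and 11351507 to 12708888 per IOX5 sample. The share of reads that was not aligned was 2.98% to 3.28% in DMSO and 3.38% to 4.86% in IOX5, so that it was higher in every IOX5 sample. Markers of myeloid leukemic progenitors were present in every sample (13 of 13 tested, summed level 2936 to 5065 CPM in DMSO and 3500 to 5928 CPM in IOX5, where CPM is a count scaled to a common sequencing depth with TMM factors). *Cd4* and *Cd8a*, which define T cells, and the B cell gene *Ms4a1* had 0 reads in all 8 samples. The 6 megakaryocyte markers summed to 26.4 to 72.0 CPM in DMSO and to 90.6 to 149 CPM in IOX5, with *Gp1bb* at 0 reads in all samples. The ranges of the macrophage (69.9 to 129 and 122 to 335 CPM), granulocyte (272 to 1092 and 377 to 1797 CPM), mast cell and basophil (81.1 to 346 and 104 to 626 CPM, *Mcpt4* at 0), erythroid (644 to 884 and 653 to 899 CPM) and endothelial and stromal (84.5 to 164 and 132 to 219 CPM, *Col1a2* at 0) markers overlapped between DMSO and IOX5. By edgeR 1 marker, *Vwf* of the megakaryocyte list, was called higher and 0 lower (0.774% and 1.25% of all genes tested). With the replicate number added as a block, those called higher were 6 of 13 tested progenitor markers, 2 of 4 macrophage, 5 of 7 granulocyte, 5 of 5 mast cell and basophil, 4 of 5 megakaryocyte, 1 of 5 erythroid and 1 of 2 endothelial and stromal markers, and 0 were lower. Over all genes tested, 11.2% were called higher and 9.43% lower with the block. In bulk RNA, a change in the share of a cell type and a change in RNA per cell cannot be told apart, and the part of these markers and of the unaligned reads in the values below was not tested.

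Promoter sequences were examined for the HIF core motif, which the choice of the genes did not use directly, although HIF targets are in part known through such sites. The RefSeq table (GRCm38.p6) held 12 promoter windows, each from 250 bases before to 50 bases after a transcription start, for 8 of the 10 genes, with *Ero1l* under the symbol *Ero1a*. *Ndrg1* and *Bhlhe40* were not matched. ACGTG or GCGTG, read on either strand, occurred in 11 of the 12 windows and in at least 1 window of all 8 genes. *Vegfa* counts through its second start alone, where both matches lie in annotated *Vegfa* exon. All 250 bases before the *Higd1a* start are annotated exon too. Exon bases were kept in these windows and in the background alike. The motif occurred in 43.8% of all 32851 promoters in the table and in 46.7% of its 27025 genes. The 12 windows held a median of 28.5 CG dinucleotides, against 7 in all promoters, and among the 14281 promoters with at least 10 CG dinucleotides, the lowest number in these windows, 68.4% held the motif. That lowest number is of the second *Vegfa* start, and the CG-rich promoters were not matched to the higher numbers of the other windows. With ACGTG alone, 6 windows of 6 genes held a match, against 19.6% of all promoters, 28.0% of the CG-rich ones and 21.8% of all genes. For *Vegfa*, *Ak4* and *Higd1a* the only matches to ACGTG lay in annotated exon or after the start. Within the 250 bases before the start alone, 11 windows of 8 genes held ACGTG or GCGTG, against 38.6% of all promoters and 41.5% of all genes.

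The stretches below show where the motif lay in the genes with the largest differences between IOX5 and DMSO (*Ankrd37*, *Ak4*, *Fam162a* and *Narf*), in *Ero1l*, and in the main promoter of *Vegfa*, which had no match. They are given 5′ to 3′ on the strand of the gene, in GRCm38.p6 and outside annotated exons. The *Ankrd37* and *Ero1l* stretches lie inside the span of the GENCODE gene and the others upstream of it. Capitals mark ACGTG or GCGTG, or CACGT or CACGC where the motif is on the other strand.
Ankrd37 (chr8:45999868-46000100, minus strand): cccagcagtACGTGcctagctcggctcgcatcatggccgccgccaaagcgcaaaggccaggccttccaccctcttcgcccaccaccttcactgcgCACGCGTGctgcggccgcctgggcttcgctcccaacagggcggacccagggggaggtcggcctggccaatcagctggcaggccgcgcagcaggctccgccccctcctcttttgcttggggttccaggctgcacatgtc
Fam162a (chr16:36071595-36071684, minus strand): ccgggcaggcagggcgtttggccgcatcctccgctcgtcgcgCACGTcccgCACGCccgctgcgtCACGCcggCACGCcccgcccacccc
Ero1l (chr14:45318573-45318702, minus strand): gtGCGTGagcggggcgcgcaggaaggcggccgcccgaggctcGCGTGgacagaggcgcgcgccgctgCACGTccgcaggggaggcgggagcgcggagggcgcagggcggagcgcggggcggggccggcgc
Narf (chr11:121236986-121237235, plus strand): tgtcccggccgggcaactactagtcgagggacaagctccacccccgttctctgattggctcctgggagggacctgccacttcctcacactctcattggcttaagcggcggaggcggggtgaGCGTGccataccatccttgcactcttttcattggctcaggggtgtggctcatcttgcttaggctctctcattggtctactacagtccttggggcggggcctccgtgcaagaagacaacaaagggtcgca
Ak4, the first of 4 starts (chr4:101419039-101419276, plus strand): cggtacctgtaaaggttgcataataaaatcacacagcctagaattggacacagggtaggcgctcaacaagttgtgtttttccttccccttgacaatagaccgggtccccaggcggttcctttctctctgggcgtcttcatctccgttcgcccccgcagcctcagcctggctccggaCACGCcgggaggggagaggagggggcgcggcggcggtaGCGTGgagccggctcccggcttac
Vegfa, the first of 2 starts (chr17:46032378-46032627, minus strand): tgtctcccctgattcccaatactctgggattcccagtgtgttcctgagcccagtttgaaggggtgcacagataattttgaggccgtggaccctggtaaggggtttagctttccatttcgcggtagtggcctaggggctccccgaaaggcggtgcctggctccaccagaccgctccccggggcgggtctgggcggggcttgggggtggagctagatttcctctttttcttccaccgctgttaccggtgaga

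*Fam162a* had the most matches of these windows, with 6, of which 4 lie in the 90 bases shown, and its window also reaches the neighboring gene *Ccdc58*. *Ankrd37* had 4, namely 1 at positions -241 to -237 from the start, a pair on opposite strands that share 2 bases in the run CACGCGTG (-155 to -151 and -152 to -148), and 1 at -6 to -2, beyond the stretch shown. *Ero1l* had 3, *Narf* 1 at -129 to -125, and the first 3 starts of *Ak4*, which lie close together, shared the same 2 matches. The *Vegfa* stretch shows only that these letters are not in this window. The second *Vegfa* start, inside the gene, had 2, both in annotated exon. CACGTG, the E-box that BHLHE40 and other helix-loop-helix proteins bind, contains the HIF core on both strands. It occurred in 1 window, that of the fourth *Ak4* start, where it lies in annotated *Ak4* exon, against 7.15% of all promoters. A match is a string of letters and not a measured binding site.

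**Figure D1:**
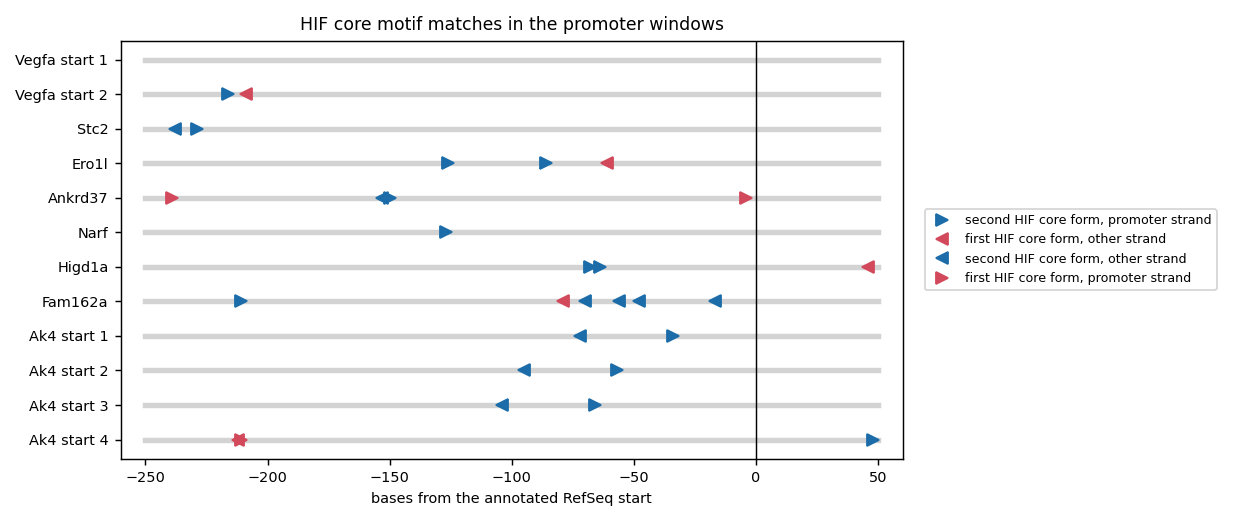
Matches to the HIF core motif in the 12 RefSeq promoter windows of 8 genes, by distance in bases from the annotated start (0). Red triangles are ACGTG and blue ones GCGTG, pointing right on the promoter strand and left on the other; the first Vegfa start has 0 matches and Fam162a has 6.

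Of the secreted factors, *Vegfa*, the growth factor for blood vessels (ENSMUSG00000023951; GRCm38 chromosome 17, 46016993 to 46032369), stood at 58.1, 47.8, 55.2 and 46.7 CPM in DMSO samples 1 to 4 and at 68.7, 75.8, 69.5 and 58.4 CPM in IOX5 samples 1 to 4. The groups came close to touching, since IOX5 sample 4 lay just above DMSO sample 1. The means were 51.9 ± 5.57 and 68.1 ± 7.23 CPM (SD, n = 4 each), which is a log2 fold change of 0.39 (SE 0.101). *Stc2*, which encodes the secreted glycoprotein stanniocalcin-2 (ENSMUSG00000020303; chromosome 11, 31357307 to 31370074), stood at 58.7, 59.0, 53.5 and 38.7 CPM in DMSO and at 57.2, 78.2, 49.4 and 46.8 CPM in IOX5. IOX5 sample 2 alone exceeded the DMSO range, and the other IOX5 samples lay inside it. The log2 fold change of *Stc2* was 0.14 (SE 0.186), the smallest of the 10, and it was -0.036 without IOX5 sample 2.

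*Ero1l* encodes the oxidase of the endoplasmic reticulum (ER) that recharges protein disulfide isomerase (ENSMUSG00000021831; chromosome 14, 45283087 to 45318771). It was the most abundant of the 10 in reads, at 450.4, 362, 398 and 414 CPM in DMSO and at 487, 455, 493 and 430.0 CPM in IOX5. The groups overlapped, because DMSO sample 1 lay above IOX5 sample 4. The means were 406 ± 36.7 and 466 ± 29.5 CPM (SD, n = 4 each), and the log2 fold change was 0.20 (SE 0.079).

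*Ndrg1*, a stress-responsive cytoplasmic protein of the N-myc downstream regulated family (ENSMUSG00000005125; chromosome 15, 66929318 to 66969640), stood at 36.1, 34.2, 60.6 and 60.9 CPM in DMSO and at 38.3, 65.4, 77.3 and 73.3 CPM in IOX5. Samples numbered 3 and 4 were high in both groups and sample 1 was low in both, so that the groups overlapped although IOX5 was higher in every pair. The means were 48.0 ± 14.8 and 63.6 ± 17.6 CPM (SD, n = 4 each), for a log2 fold change of 0.41 (SE 0.264).

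In the nucleus, *Bhlhe40* encodes a helix-loop-helix repressor that acts on the circadian clock (ENSMUSG00000030103; chromosome 6, 108660629 to 108666925). It stood at 93.2, 67.6, 80.5 and 78.5 CPM in DMSO and at 104, 106, 115 and 94.4 CPM in IOX5. IOX5 sample 4 lay barely above DMSO sample 1, and the groups did not overlap. The means were 80.0 ± 10.5 and 105 ± 8.52 CPM (SD, n = 4 each), for a log2 fold change of 0.39 (SE 0.103). *Narf*, the prelamin A recognition factor of the nuclear lamina (ENSMUSG00000000056; chromosome 11, 121237253 to 121255856), stood at 59.3, 58.3, 57.8 and 54.8 CPM in DMSO and at 84.9, 91.9, 83.1 and 73.6 CPM in IOX5. Its DMSO samples lay closest together of the 10 genes (coefficient of variation 3.34%), and the lowest IOX5 sample stood well above all of them. The means were 57.6 ± 1.92 and 83.4 ± 7.53 CPM (SD, n = 4 each), for a log2 fold change of 0.53 (SE 0.074).

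*Ankrd37* encodes a small protein with ankyrin repeats (ENSMUSG00000050914; chromosome 8, 45996902 to 46005707). It was the least expressed of the 10, at 5.29, 5.44, 6.50 and 6.95 CPM in DMSO, and stood at 13.5, 18.2, 16.3 and 15.0 CPM in IOX5. The groups lay far apart, and sample 2 gave both the highest IOX5 value and the largest difference within a pair. The log2 fold change was 1.38 (SE 0.145), a fold of 2.60, which placed *Ankrd37* at rank 45 of the 12405 genes by log2 fold change, and the other 9 genes lay further down. Its exons share 57 bases with those of *Ufsp2* on the opposite strand, which stood at 67.1 to 82.2 CPM in DMSO and 77.8 to 86.7 CPM in IOX5 (log2 fold change 0.14, edgeR quasi-likelihood adjusted p = 0.338). The libraries were directional, and *Xist* had 105071 reads in the 8 samples whereas its antisense partner *Tsix* had 21. The strand setting of the counting is not stated. These reads alone do not show that overlapping genes on opposite strands were told apart.

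Of the mitochondrial proteins, *Higd1a*, which acts on the respiratory chain (ENSMUSG00000038412; chromosome 9, 121848563 to 121858362), stood at 36.1, 33.4, 36.8 and 38.6 CPM in DMSO and at 41.9, 41.2, 52.2 and 53.9 CPM in IOX5. The IOX5 samples fell into a lower pair, 1 and 2, and a higher pair, 3 and 4, both above the DMSO range. The means were 36.2 ± 2.18 and 47.3 ± 6.70 CPM (SD, n = 4 each), for a log2 fold change of 0.39 (SE 0.106). *Fam162a*, whose product promotes apoptosis in hypoxic cells (ENSMUSG00000003955; chromosome 16, 36043761 to 36071594), stood at 101, 72.9, 74.8 and 84.3 CPM in DMSO and at 142, 161, 126 and 135 CPM in IOX5. Every IOX5 sample was clear of the DMSO range, with IOX5 sample 2 the highest and its DMSO partner the lowest. The means were 83.2 ± 12.8 and 141 ± 14.6 CPM (SD, n = 4 each), which is a log2 fold change of 0.76 (SE 0.117). *Wdr5b*, which shares 168 exon bases with *Fam162a* on the opposite strand, had a log2 fold change of -0.026 (edgeR adjusted p = 0.929).

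*Ak4* encodes an adenylate kinase of the mitochondrial matrix and thus acts on nucleotides (ENSMUSG00000028527; chromosome 4, 101419277 to 101466995). It stood at 73.3, 29.4, 64.9 and 62.2 CPM in DMSO and at 111, 73.6, 132 and 115 CPM in IOX5. Sample 2 was the lowest of both groups, and IOX5 sample 2 lay only just above DMSO sample 1. The means were 57.4 ± 19.3 and 108 ± 24.5 CPM (SD, n = 4 each). The log2 fold change was 0.91, second to that of *Ankrd37*, and its SE of 0.273 was the largest of the 10.

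**Figure D2:**
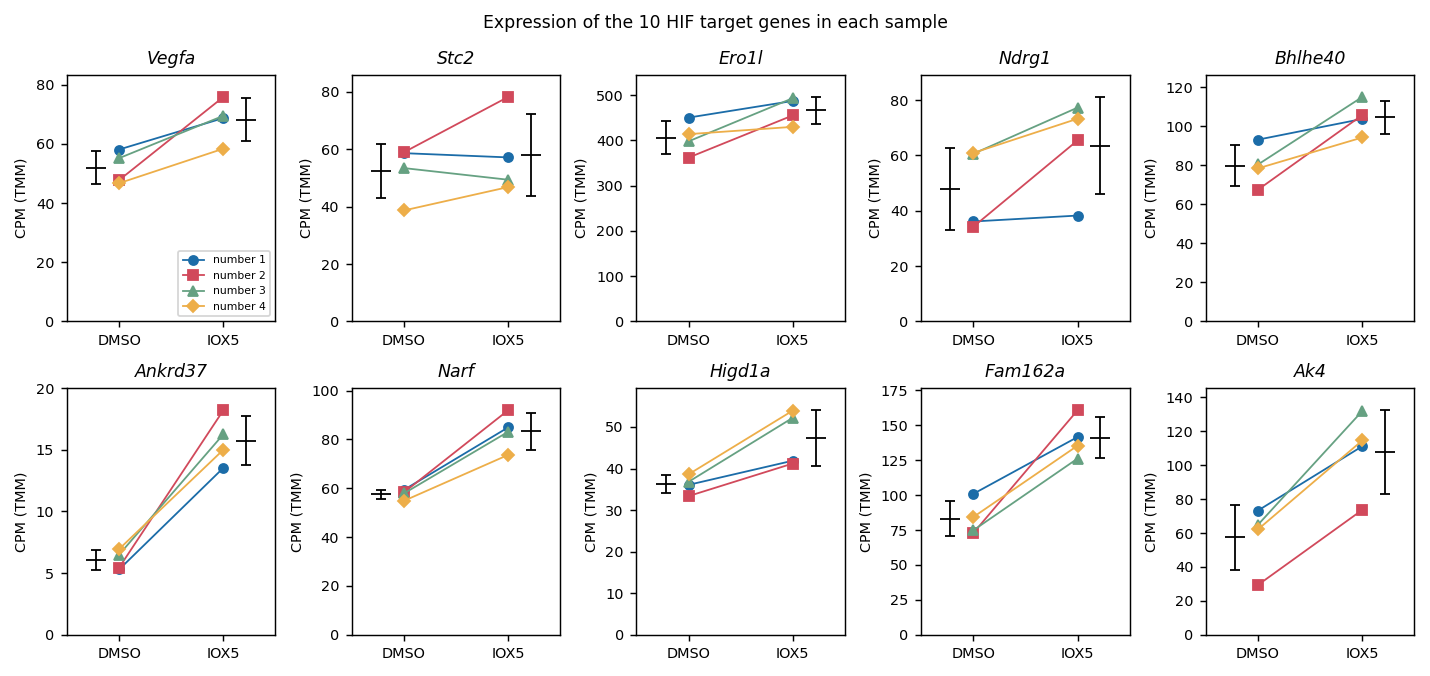
Level of each of the 10 genes in CPM (linear axis from 0) in the 4 DMSO and 4 IOX5 samples, with a line joining the samples that share a number and black marks for the mean ± SD. The groups do not overlap for 7 genes, and the exceptions are Stc2, Ero1l and Ndrg1.

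For 7 of the 10 genes every IOX5 sample lay above every DMSO sample, which held for 5.98% of all genes tested. *Ankrd37*, *Narf* and *Fam162a* were called higher at an adjusted p under 0.05 by edgeR, against a background of 0.774% of all genes. The median log2 fold change of the 10 was 0.40, a fold of 1.32, and that of all genes tested was 0.017. Since the genes were chosen on this contrast, nothing is read from these figures. The call count was 8 with the replicate number as a block, all but *Stc2* and *Ero1l*, against a background of 11.2%. Without DMSO sample 3, DMSO sample 4 or IOX5 sample 3 it was 0, and 0 of all genes were called higher. Without DMSO sample 2 it was 1 (*Ankrd37*), against 10 of all genes. It was 2 without DMSO sample 1 (*Narf* lost, 7 of all genes higher) or IOX5 sample 1 (*Fam162a* lost, 36 of all genes). It stayed at 3 without IOX5 sample 2 (53 of all genes) and was 4 without IOX5 sample 4 (*Vegfa* added, 130 of all genes).

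Within the replicate numbers, IOX5 was higher than DMSO in 38 of 40 pairs of values. The exceptions were *Stc2* in numbers 1 and 3, with log2 differences of -0.04 and -0.11. The other 9 genes were higher in all 4 pairs, as were 21.3% of all genes tested. The size of the difference varied by number, and 9 of the 10 genes had their largest difference in number 2, and *Higd1a* had it in number 3. The median log2 difference of the 10 genes was 0.23, 0.66, 0.51 and 0.37 in numbers 1 to 4. Over all genes tested the medians were 0.0044, 0.035, -0.00079 and 0.0039, and the SD over genes was 0.348, 0.475, 0.380 and 0.354, so that number 2 also had the widest spread over all genes. DMSO sample 2 was the lowest DMSO sample for 6 of the 10 genes, and IOX5 sample 2 the highest IOX5 sample for 5.

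The genes differed in how evenly they moved. *Narf* ranged from 0.42 to 0.66 over the 4 pairs on the log2 scale and *Ankrd37* from 1.09 to 1.71. *Ndrg1* ranged from 0.083 in number 1 to 0.93 in number 2, *Fam162a* from 0.49 to 1.14 and *Ak4* from 0.60 to 1.32, in each case with number 1 the lowest and number 2 the highest. *Ero1l* ranged from 0.055 to 0.33.

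**Figure D3:**
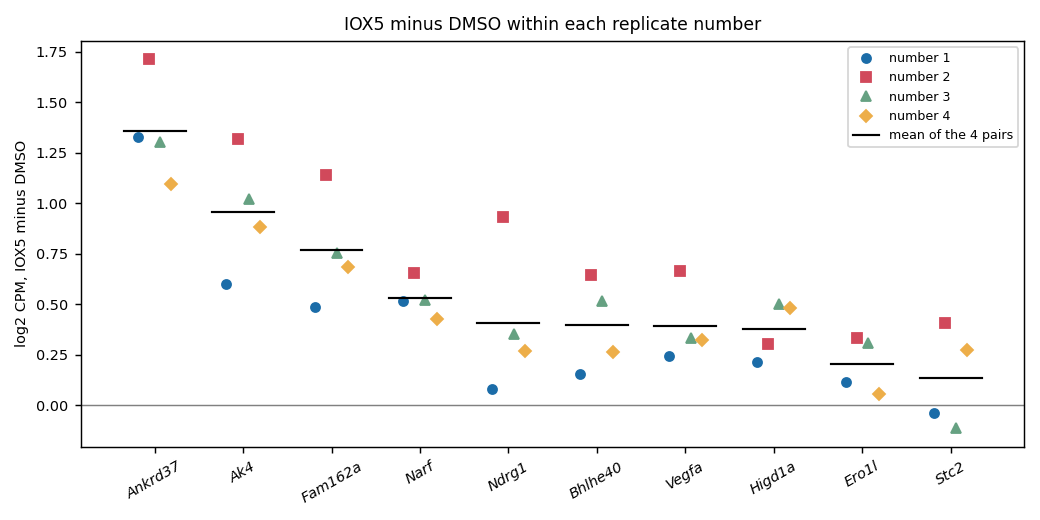
Difference between the IOX5 and the DMSO sample of each replicate number, in log2 CPM, for the 10 genes in order of the mean of the 4 pairs (black line). Number 2 (red squares) is the highest for 9 genes, and the values below 0 are Stc2 in numbers 1 and 3.

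Differences between the replicate numbers that were common to both treatments did not enter the choice of the genes, and were tested. By edgeR's quasi-likelihood F test of the number in a fit with the treatment, 3 of the 10 genes differed, a share near the background of 22.5% of all genes. *Ak4* (edgeR adjusted p = 0.000327) lay at -0.70 in number 2 relative to its mean over the numbers, on the log2 scale, and at 0.16 to 0.29 in the others. *Ndrg1* (edgeR adjusted p = 0.00171) ran from -0.52 in number 1 to 0.36 in number 3. *Stc2* (edgeR adjusted p = 0.00628) ran from -0.35 in number 4 to 0.33 in number 2. The 3 genes therefore did not share an order of the numbers. For the other 7 the adjusted p by edgeR lay between 0.154 (*Higd1a*) and 0.547 (*Ankrd37*). The median range over the numbers was 0.29 for the 10 genes and 0.31 for all genes tested. Without DMSO sample 2 the test called 5, adding *Vegfa* and *Fam162a*, while its calls over all genes went from 2790 to 3893.

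Levels between genes were compared per kilobase of annotated exon (RPKM). In DMSO, *Fam162a* was the highest at 97.9 ± 15.1 RPKM and *Ero1l* next at 76.8 ± 6.94 RPKM (SD, n = 4 each). Their DMSO ranges did not overlap, although the lowest *Fam162a* sample (85.7 RPKM) lay next to the highest *Ero1l* sample (85.2 RPKM). *Bhlhe40* followed at 17.0 ± 2.24 RPKM, far below both. *Ak4* (12.4 ± 4.15), *Vegfa* (12.1 ± 1.30), *Narf* (12.0 ± 0.400), *Higd1a* (11.9 ± 0.716), *Stc2* (10.1 ± 1.84) and *Ndrg1* (7.27 ± 2.24 RPKM) came next, and from *Bhlhe40* to *Ndrg1* each gene overlapped with its neighbor in this order. *Ankrd37* was the lowest at 3.93 ± 0.524 RPKM, below every sample of *Ndrg1*. In IOX5, *Fam162a* stood at 166 ± 17.2, *Ero1l* at 88.3 ± 5.58, *Ak4* at 23.2 ± 5.28, *Bhlhe40* at 22.3 ± 1.81 and *Ankrd37* at 10.2 ± 1.29 RPKM (SD, n = 4 each). *Ankrd37* thus moved from the lowest level to a mean above that of *Ndrg1* (9.64 ± 2.66 RPKM), by less than the spread of either. With the longest transcript as the length, *Fam162a*, *Ero1l* and *Bhlhe40* remained the highest and *Ndrg1* and *Ankrd37* the lowest, whereas 4 of the 5 genes between them, all but *Vegfa*, changed places.

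**Figure D4:**
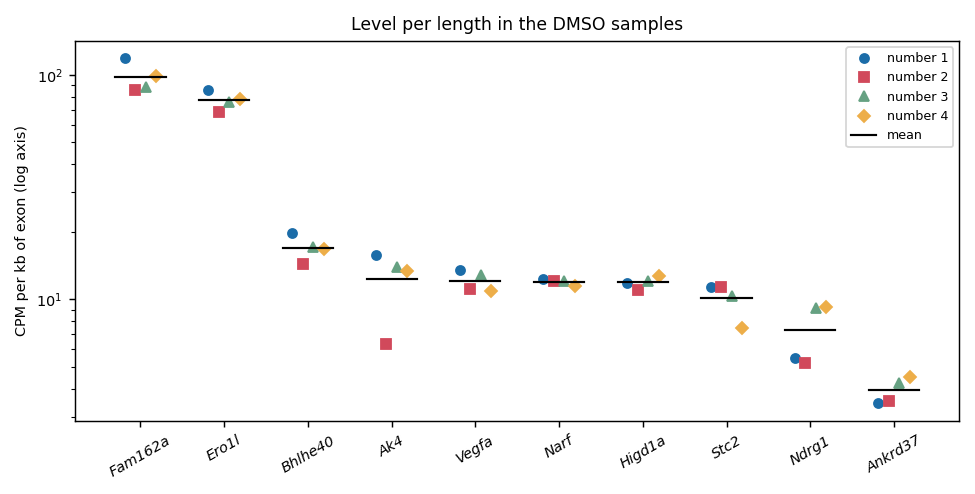
Level per kilobase of exon of the 10 genes in the 4 DMSO samples (log axis), with the mean as a black line, in order of the mean. Fam162a and Ero1l reach down to 85.7 and 68.5, Ankrd37 reaches up to 4.52, and the 7 genes between them overlap with a neighbor.

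The other HIF target genes were followed with a list of 59, of which 49 were tested. The list was drawn up with earlier results of these data known and is not independent evidence of its direction. Of the 49, 42 had a log2 fold change above 0, against 52.8% of all genes tested, with a median of 0.27. Called higher were 8 genes, or 16.3% of those tested against the background of 0.774%, and 0 were called lower (background 1.25%). The 8 were *Egln1*, *Bnip3*, *Bnip3l*, *P4ha1*, *Kdm3a*, *Hmox1*, *Hilpda* and *Mif*. *Kdm3a*, a histone demethylase, stood at 81.0 to 95.7 CPM in DMSO and at 118 to 137 CPM in IOX5, with a log2 fold change of 0.55 (SE 0.075, edgeR adjusted p = 0.0197). *Hmox1*, the heme oxygenase that is also a target of NRF2, stood at 43.4 to 63.2 CPM in DMSO and at 90.5 to 180.5 CPM in IOX5, with a log2 fold change of 1.34 (SE 0.201, edgeR adjusted p = 0.0254). *Bnip3l*, a mitophagy receptor, stood at 79.6 to 121 CPM in DMSO and at 144 to 184 CPM in IOX5. The groups did not overlap for any of these 3 genes. With the replicate block 22 rose (44.9% of those tested, against a background of 11.2%) and 1 fell (background 9.43%). The gene that fell was *Lox*, a collagen cross-linking oxidase (log2 fold change -1.28, edgeR adjusted p = 0.319 without and 1.16e-05 with the block). Leaving out any 1 of the 8 samples gave between 0 and 3 genes called higher, and with 0 calls (without DMSO sample 3, DMSO sample 4 or IOX5 sample 3) 1969, 1846 and 2111 of all genes had an unadjusted p under 0.05 by edgeR.

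The paralogs of the 10 genes were examined in the same comparison. Of 23 listed, 14 were tested and 0 were called by edgeR in either direction (background 2.02%). By edgeR 3 of the 14 had an unadjusted p under 0.05, against 2506 of the 12405 genes tested. DESeq2 called 1, *Ak1*, higher, against 489 of all genes. A log2 fold change above 0 was found for 11 (background 52.8%), and the median was 0.19. The vessel growth factors *Vegfb* and *Pgf* had log2 fold changes of 0.026 and 0.24 (edgeR adjusted p = 0.936 and 0.732). *Vegfc* and *Vegfd* had 46 and 10 reads in the 8 samples together and were not tested, nor was *Stc1*, the paralog of *Stc2*, with 8 reads. *Ero1lb*, the second ER oxidase, had a log2 fold change of -0.13 (edgeR adjusted p = 0.687), and *Narfl*, an iron-sulfur cluster assembly factor, one of 0.059 (edgeR adjusted p = 0.754). *Higd2a*, a respiratory chain assembly factor, stood at 25.6 to 29.9 CPM in DMSO and 30.4 to 33.9 CPM in IOX5, without overlap (log2 fold change 0.23, edgeR adjusted p = 0.151).

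With the replicate block 4 paralogs were called, all higher (28.6% of those tested, against a background of 11.2% higher and 20.7% in either direction). *Bhlhe41*, the closest relative of *Bhlhe40* and like it a clock repressor, stood at 0.635, 1.01, 0.162 and 0 CPM in DMSO and at 2.56, 8.70, 1.33 and 0.694 CPM in IOX5. It was higher with IOX5 in every pair while the groups overlapped, on 179 reads in all 8 samples (log2 fold change 2.83, SE 0.978, edgeR adjusted p = 0.156 without and 0.000178 with the block). *Bhlhe41* passed the filter on low counts mainly through its IOX5 samples, so its difference is given as a description. Its call with the block was lost without number 2. *Ndrg2* stood at 53.4, 7.93, 16.5 and 16.1 CPM in DMSO and at 93.9, 17.1, 18.4 and 17.0 CPM in IOX5 (edgeR adjusted p = 0.669 without and 0.0151 with the block). Number 1 was thus the highest for *Ndrg2* in both groups, whereas *Ndrg1* was lowest there in IOX5 and low in DMSO. *Ndrg4* stood at 0.731 to 2.05 CPM in DMSO and at 1.13 to 4.44 CPM in IOX5 (edgeR adjusted p = 0.281 and 0.00804 with the block), and *Ndrg3* had a log2 fold change of 0.060 (edgeR adjusted p = 0.835). *Ak1*, the cytosolic adenylate kinase, stood at 3.53, 2.33, 2.19 and 1.93 CPM in DMSO and at 5.93, 2.66, 8.44 and 6.68 CPM in IOX5 (log2 fold change 1.24, SE 0.351, edgeR adjusted p = 0.0989 without and 0.00446 with the block). IOX5 sample 2 was the one IOX5 sample of *Ak1* inside the DMSO range, and *Ak1* was called without it.

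*Ak3*, *Ak6* and *Ak8*, further adenylate kinases, did not pass the threshold, with the block or without it. *Ak3* had a log2 fold change of 0.15, *Ak6* one of -0.22 and *Ak8* one of 0.34 (edgeR adjusted p = 0.766, 0.457 and 0.832, respectively). *Ak5* and *Ak7* had 7 and 5 reads and *Ak9* had 0, as did *Higd1b*, *Higd1c* and *Fam162b*.

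The partners of the 10 genes were examined with 3 more lists. Of 5 VEGF receptors and coreceptors, *Kdr* (51 reads) and *Flt4* (44 reads in 8 samples) fell below the filter. Of the 3 tested, 0 were called by edgeR (background 2.02%), 0 had an unadjusted p under 0.05, and DESeq2 called 0. The coreceptor *Nrp1* stood at 4.38, 2.64, 7.39 and 8.49 CPM in DMSO and at 7.05, 6.39, 16.8 and 12.3 CPM in IOX5, higher in every pair (log2 fold change 0.90, edgeR adjusted p = 0.275 without and 0.00136 with the block). *Nrp2* stood at 46.8 to 128 CPM in DMSO and 42.7 to 179 CPM in IOX5 and differed by less than its spread (log2 fold change 0.062, edgeR adjusted p = 0.962).

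Of 20 tested genes of oxidative folding in the ER, 8 had a log2 fold change above 0 (background 52.8%), with a median of -0.035. By edgeR 1 was called, higher (background 2.02% in either direction). It was *Txndc12*, a thioredoxin-like protein of the ER, at 62.9 to 70.3 CPM in DMSO and 80.7 to 88.5 CPM in IOX5 (log2 fold change 0.32, SE 0.060, edgeR adjusted p = 0.0396). The call was lost without the filter on low counts and without any 1 sample other than IOX5 sample 4. With the replicate block 5 of the 20 were called, near the background of 20.7%: 2 genes were higher, *Txndc12* and *Qsox1*, and 3 were lower, *Txndc5*, *Prdx4* and *Dnajc10*, the last 4 of which were named after their values had been seen. Of 18 tested clock genes, 0 were called by edgeR (background 2.02%). By edgeR 5 of the 18 had an unadjusted p under 0.05, against 2506 of the 12405 genes tested. DESeq2 called *Tef* higher and *Clock* lower, against 489 higher and 602 lower of all genes. The median log2 fold change of the 18 was 0.19. *Tef*, an activator of clock output genes, stood at 23.3 to 31.6 CPM in DMSO and 31.7 to 43.8 CPM in IOX5, close but without overlap (log2 fold change 0.50, edgeR adjusted p = 0.0757 without and 0.00277 with the block). *Clock* itself, the core activator, stood at 36.6 to 47.8 CPM in DMSO and 28.4 to 37.2 CPM in IOX5, lower in every pair (log2 fold change -0.39, edgeR adjusted p = 0.107 without and 0.0117 with the block). With the block 6 of the 18 were called, against a background of 20.7%, with *Bhlhe41*, *Per3*, *Nr1d2*, *Tef* and *Csnk1e* higher (background 11.2%) and *Clock* lower (9.43%). With 1 number left out in turn, only *Tef* kept this call each time, and *Bhlhe41* lost it without number 2.

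**Figure D5:**
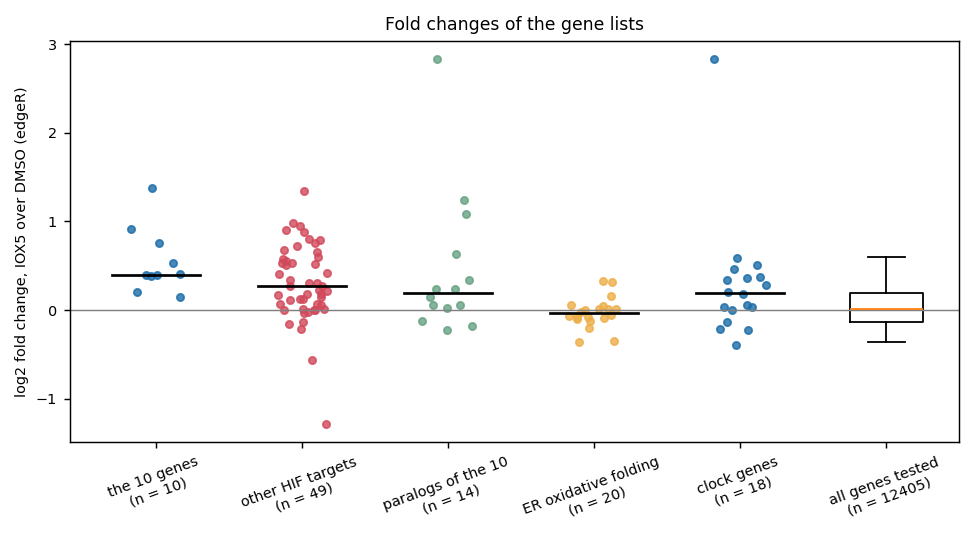
Log2 fold change of IOX5 over DMSO (edgeR) of each gene in 5 lists, with the median as a black line, beside all 12405 genes tested (box, quartiles and median; whiskers, 5th to 95th percentile). The medians are 0.40 for the 10 genes, 0.27 for the other HIF targets, 0.19 for paralogs and clock genes and -0.035 for ER folding; the point at 2.83, Bhlhe41, stands in both the paralog and the clock list.

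Finally, the genes whose profile over the 8 samples was most like the mean profile of the 10 were sought among 8915 genes with a mean of at least 10 CPM, by the root mean square distance between centered log2 CPM values. The nearest were *Sfxn3* (0.052), a mitochondrial serine transporter, *Kdm3a* (0.063), the glycolytic enzyme *Pfkl* (0.065), *Trappc6a* (0.069) of a vesicle tethering complex, and the glycogen synthase *Gys1* (0.073). The median gene lay at 0.34. The mean profile includes the difference between IOX5 and DMSO on which the 10 genes were chosen. Genes near it are therefore bound to show a similar difference, and those named had log2 fold changes of 0.47 (*Sfxn3*) to 0.59 (*Trappc6a*). Of the 10 genes themselves *Bhlhe40* lay nearest to their mean at 0.11 and *Ankrd37* farthest at 0.43. *Sfxn3* stood at 27.5, 20.9, 27.2 and 26.3 CPM in DMSO and at 32.9, 37.1, 37.8 and 33.2 CPM in IOX5, with DMSO sample 2 the lowest, as for 6 of the 10 genes.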

How the data were processed

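RNA-seq was performed by the authors on 8 samples of *iMLL-AF9* cells (4 DMSO, 4 IOX5) from poly(A) RNA with directional, single-end libraries. The submitters' processing notes name Cutadapt 1.18, HISAT2 2.2.1 and HTSeq 2.0.1 with GRCm38. The deposited values are raw counts of reads per Ensembl gene, without normalization, and the release of the annotation used for counting is not given in the sources used here. The 5 summary lines of each file (20.6% to 22.6% of reads) were left out.

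Of 54838 genes, 54809 were named through GENCODE M21. The counts were filtered with filterByExpr (12405 genes left), scaled with TMM (0.988 to 1.03) and compared with edgeR 4.0.16's quasi-likelihood test in R 4.3.3, without a block. A gene was called where its p, adjusted after Benjamini and Hochberg, was below 0.05. CPM values use TMM, and log2 CPM values of pairs a prior count of 2. Same-numbered DMSO and IOX5 samples deviated together from their group means (r = 0.758, 0.744, 0.732 and 0.636 for numbers 1 to 4). DMSO sample 4 correlated more with an IOX5 sample of another number (r = 0.685) than with its own. DMSO sample 3 reached 0.617 with another number. Pairing is thus only a hint from the data, and by this measure it does not hold for number 4. The common coefficient of variation that edgeR estimated between samples was 0.202 without the block and 0.0794 with it. The main fit thus leaves differences between the numbers in its error. A fit with the number as a block is given where it changed a call. DESeq2 1.42.0, RLE and upper-quartile factors, no filter, a minimum of 10 counts and each sample left out were the other alternatives. The steps were run on simulated counts to check the code, which does not decide between the fits with and without the block.

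The 10 genes and all lists were chosen with earlier results of these data known. Named were the 10 genes, all tested paralogs but 1 that is not reported here, the 3 list genes with the smallest p in each direction among those called (2 where none was), genes over their exons on the opposite strand, and the 5 genes nearest to their mean profile.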

Additional observations from a re-analysis of the deposited data

Results flagged for a closer look

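In a group of 4 samples, a value far from the other 3 was sought by Dixon's test in 76 groups of 38 genes, where chance gives 3.8 at 1 in 20, and 3 were found. *Ndrg2* stood at 93.9 CPM in IOX5 sample 1 and between 17.0 and 18.4 CPM in the other IOX5 samples. *Ak3* stood at 29.2 CPM in IOX5 sample 2 and between 48.2 and 50.7 CPM in the others. *Nrp2* stood at 179 CPM in IOX5 sample 2 and between 42.7 and 65.8 CPM in the others. For *Ndrg2* and *Nrp2* the DMSO sample of the same number was also the highest of its group (53.4 and 128 CPM), and for *Ak3* it was the lowest (24.7 CPM). None of the 10 HIF target genes held such a value. In data outside the gene counts, the share of reads that was not aligned reached 4.86% in the highest IOX5 sample, and the lowest IOX5 sample (3.38%) lay above the highest DMSO sample (3.28%).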

How the results depend on the processing

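The log2 fold changes of the 10 genes kept their direction in all 18 alternatives except for *Stc2*, which was -0.036 without IOX5 replicate 2 and otherwise at most 0.23. Their median ran from 0.35 to 0.49, *Ankrd37* from 1.26 to 1.47, *Ak4* from 0.69 to 1.06 and *Ndrg1* from 0.24 to 0.59. The counts of calls moved more, and the cause was not tested. Against 96 genes higher and 155 lower, the replicate block gave 1394 and 1170, DESeq2 489 and 602, and upper-quartile factors 101 and 108, with 73 lower without a filter. RLE and upper-quartile factors, no filter and a minimum of 10 counts called *Ankrd37*, *Narf* and *Fam162a* of the 10 genes, as without them. Of the 10 genes, 8 were called with the replicate block and 7 by DESeq2 (*Ndrg1* not among them), of the other HIF targets 22 and 16, and of the paralogs 4 and 1. With each sample left out in turn, 0 to 130 genes were higher and 0 to 333 lower, with 0 to 4 of the 10 genes, 0 to 3 other HIF targets and 0 to 1 paralogs called. The test between replicate numbers then called 2055 to 3893 genes and 3 to 5 of the 10. The replicate block with both samples of 1 number left out, chosen after seeing the data, called 994, 1119, 642 and 1355 genes higher and 650, 1016, 403 and 1058 lower without numbers 1 to 4, with 6 to 9 of the 10 genes, 17 to 20 other HIF targets and 3 to 6 paralogs. Depth limits the paralogs *Bhlhe41* (179 reads), *Ndrg4* (205) and *Ak8* (236 reads in 8 samples), and kept *Kdr*, *Flt4*, *Vegfc*, *Vegfd* and *Stc1* from the test, whereas the lowest count of the 10 genes was 70 reads, for *Ankrd37* in 1 DMSO sample.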
